A study of Homo sapiens with 8 samples.

Results

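Chromatin accessibility was compared between MCF10A cells kept in solvent and MCF10A cells exposed to TGFβ1 for 72 h, the longest exposure in the series. MCF10A is an immortalised, non-tumorigenic human mammary epithelial line with basal features. All libraries came from wild-type cells, the cytokine was used at 5 ng/ml, and the solvent was BSA in PBS. The solvent libraries carry a time of 0 h in the labels, whereas the legend to the experimental scheme states that control cells had solvent for the longest interval, so the time for which the control cells were kept in solvent differs between the sources. Each condition had 2 libraries, and the deposited peaks were called on the 2 libraries jointly, which leaves 1 peak list per condition. None of the differences below therefore has a replicate check, and no test was made.

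The value used throughout is the area under the significance curve of a peak (AUC), which grows with both the height and the width of a peak and which had to exceed 200 for a peak to be listed. Peaks of both lists that shared at least 1 bp were merged into regions. This gave 118977 regions, against 126658 when all 4 lists of the series were merged. The change of a region was the log2 ratio of its summed AUC at 72 h to that in solvent, minus the median of this ratio over shared regions within 3 kb of a transcription start site (TSS). That median was 0.24, and changes at 72 h given as scaled are relative to it. The like medians against solvent were 0.45 for the 6 h list and 0.38 for the 24 h list. Scaled changes at those times are relative to these. AUCs are printed unscaled, so a rise smaller than the median of its list is a fall on the scaled level. A shared region was called opening or closing from a scaled change of 1 upward or -1 downward, and the summed AUC of a gene from 0.5 or -0.5.

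TGFβ1 binds a pair of receptor kinases that phosphorylate SMAD2 and SMAD3. These enter the nucleus with SMAD4 and act there with other transcription factors. In mammary epithelial cells prolonged exposure is a standard model of epithelial-mesenchymal transition (EMT), in which junction and epithelial identity genes are turned down and matrix, cytoskeletal and mesenchymal adhesion genes are turned up. ATAC-seq reads out where a transposase can insert into DNA, and such sites are found at active promoters and enhancers.

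Named sites in the comparison carried recognisable elements of the factors involved, and the reference sequence around the summits of 9 of them is given here as examples of the elements whose shares are reported further on. They were picked after their matches had been seen. Each run is 201 bases of hg38, plus strand, centred on the summit of the strongest peak of the region. Capitals mark the AP-1 element TGACTCA, the SMAD palindrome GTCTAGAC, the shorter SMAD element CAGACA, the E-box CACCTG, the C/EBP element TTGCNNAA and the RUNX element TGTGGTT, all on either strand. The first 6 sites opened or were gained and the last 3 closed.
Opening region near PADI1, chr1:17168135-17168335: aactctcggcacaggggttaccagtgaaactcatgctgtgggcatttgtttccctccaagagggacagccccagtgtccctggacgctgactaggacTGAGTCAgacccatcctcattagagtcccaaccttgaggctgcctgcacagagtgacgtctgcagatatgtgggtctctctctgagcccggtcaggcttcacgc
Opening region near TP63, chr3:189572333-189572533: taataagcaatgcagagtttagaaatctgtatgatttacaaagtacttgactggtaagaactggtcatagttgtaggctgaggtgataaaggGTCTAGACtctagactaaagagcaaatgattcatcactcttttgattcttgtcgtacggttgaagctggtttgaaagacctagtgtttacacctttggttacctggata
Opening region near CTH, chr1:70487028-70487228: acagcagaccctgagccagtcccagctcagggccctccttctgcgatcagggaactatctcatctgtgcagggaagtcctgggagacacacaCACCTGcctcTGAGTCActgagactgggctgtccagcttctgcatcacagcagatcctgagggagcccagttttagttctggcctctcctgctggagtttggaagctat
Gained promoter region of WNT5B, chr12:1527813-1528013: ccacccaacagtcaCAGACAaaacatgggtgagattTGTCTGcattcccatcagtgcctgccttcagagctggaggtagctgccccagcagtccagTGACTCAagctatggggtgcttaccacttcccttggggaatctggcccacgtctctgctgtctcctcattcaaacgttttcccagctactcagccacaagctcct
Gained promoter region of LDLRAD4, chr18:13447755-13447955: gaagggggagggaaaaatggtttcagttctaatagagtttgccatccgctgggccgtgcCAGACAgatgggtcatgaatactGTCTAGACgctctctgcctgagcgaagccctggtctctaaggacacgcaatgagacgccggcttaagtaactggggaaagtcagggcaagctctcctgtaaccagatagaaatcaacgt
Opening distal region of ZEB1, chr10:31242950-31243150: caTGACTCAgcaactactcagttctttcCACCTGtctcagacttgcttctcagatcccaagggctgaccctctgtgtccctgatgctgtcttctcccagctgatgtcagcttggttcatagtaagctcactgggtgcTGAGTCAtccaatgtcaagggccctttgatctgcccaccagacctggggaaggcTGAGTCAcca
Closing region near RALGAPA2, chr20:20772786-20772986: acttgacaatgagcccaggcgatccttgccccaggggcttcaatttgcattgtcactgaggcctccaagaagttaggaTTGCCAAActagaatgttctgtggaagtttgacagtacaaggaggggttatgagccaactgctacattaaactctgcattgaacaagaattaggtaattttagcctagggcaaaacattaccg
Closing region near IRX2, chr5:2780417-2780617: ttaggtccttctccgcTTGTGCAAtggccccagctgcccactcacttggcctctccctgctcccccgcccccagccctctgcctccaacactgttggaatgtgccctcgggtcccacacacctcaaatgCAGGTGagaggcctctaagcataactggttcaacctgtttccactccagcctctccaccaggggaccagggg
Closing promoter region of EHF, chr11:34640336-34640536: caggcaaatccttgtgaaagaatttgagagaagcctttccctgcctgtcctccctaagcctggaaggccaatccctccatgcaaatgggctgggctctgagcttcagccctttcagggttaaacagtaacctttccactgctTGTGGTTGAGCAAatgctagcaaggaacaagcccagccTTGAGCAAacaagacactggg

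In these windows the AP-1 element stood near PADI1, CTH, WNT5B and ZEB1, where the ZEB1 site held 3 copies. The SMAD palindrome stood near TP63 and in LDLRAD4, and the WNT5B site held 2 copies of the shorter SMAD element. The CTH and ZEB1 sites also held an E-box. None of the 3 closing sites held an AP-1 or SMAD element in the window. All 3 held a C/EBP element, the EHF site 2 copies and a RUNX element, and the IRX2 site an E-box. Not every leading site followed these examples. The closing region near RBM20 held an AP-1 element, and the opening regions near MSRB3 and SH3RF2 and the closing region near AFDN held none of the 16 motifs searched. A match to these letters is a description of the sequence and does not show that a factor was bound.

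The 72 h list was the longer one, with 116720 peaks against 86209 in solvent, at median AUCs of 791 and 725 and median widths of 367 bp in both. Of the 118977 regions, 81215 were shared, 34749 were present only at 72 h (29.2% of all regions, called gained) and 3013 only in solvent (2.53%, called lost). Among shared regions 8425 opened (10.4%) and 1004 closed (1.24%). The size of the excess of opening over closing regions depended on the centring. When change was centred among regions of like AUC, 4722 opened and 2114 closed, and when it was centred among regions of like GC content, 5047 opened and 1751 closed. When both lists were cut to 86209 peaks, which removed every 72 h peak with an AUC under 426, 13287 regions were gained and 11763 lost, whereas among shared regions 8254 opened and 367 closed. The depth of the libraries is unknown from the files, and its part in the excess of gained regions was not tested.

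The sites that opened were mostly away from promoters. Distal regions, those more than 3 kb from any TSS, made up 78.3% of opening and 78.8% of gained regions, 64.9% of closing and 62.4% of lost regions, and 65.1% of all regions. The median scaled change was 0.27 over 48207 shared distal regions and by construction 0 over 33008 shared proximal regions. Among distal regions 13.7% opened and 1.35% closed, against 5.54% and 1.07% of proximal regions. Gained regions were weak and narrow, with a median AUC of 359 and a median width of 239 bp, against 467 bp in opening regions.

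**Figure D1:**
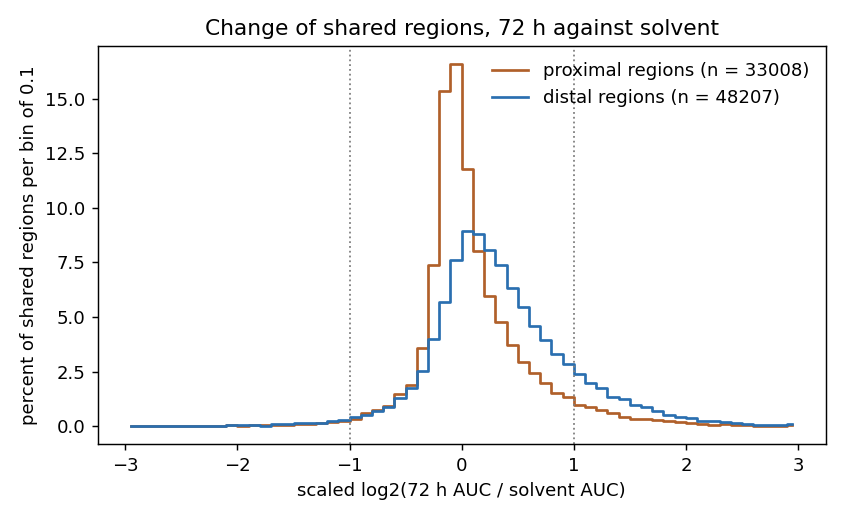
Distribution of the scaled log2 change of shared regions (x axis) as the percent of regions in each bin of 0.1 (y axis), for regions within 3 kb of a TSS and for distal regions, with values beyond 3 placed in the end bins. Dotted lines mark the limits of 1 and -1, and the distal curve is shifted to the right of the proximal one, with medians of 0.27 and 0.

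Change also followed base composition and level. The median scaled change was 0.36 in the quintile of shared regions with the lowest GC content and -0.06 in that with the highest, and it was 0.23 in the weakest quintile by AUC, 0.34 in the next and -0.05 in the strongest. By chromosome it ranged from 0.03 on chromosome 19 to 0.21 on chromosome 4. Opening regions had a median GC content of 45.1% and closing regions of 50%, and the part of base composition in the changes was not tested.

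By 6 h the opening regions had covered more of their final change than the closing ones. In the regions that opened at 72 h the median scaled change was 0.77 after 6 h, 1.19 after 24 h and 1.35 after 72 h. In those that closed it was -0.35, -0.80 and -1.28. Of the gained regions 54.7% already had a peak at 6 h and 80.1% at 24 h. Of the lost regions 80.7% still had a peak at 6 h and 54.5% at 24 h. All of these comparisons share the solvent list, and the regions were selected on the 72 h value.

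The 6 shared distal regions of largest rise among those with a mean AUC of at least 1000 started just above the listing threshold. An intergenic region at chr1:17167845-17168884, 36244 bp from the TSS of PADI1, a peptidylarginine deiminase gene, had an AUC of 210 in solvent, 1686 after 6 h, 2588 after 24 h and 2960 after 72 h, a scaled change of 3.57. A region in an intron of the antisense transcript MSRB3-AS1, 181418 bp from MSRB3, went from 246 in solvent to 961, 1920 and 3443, a scaled change of 3.56. The region nearest to TP63, which encodes the basal epithelial regulator p63, lay 58590 bp from its TSS and had 222 in solvent, 2482 after 6 h, 3175 after 24 h and 3086 after 72 h, a scaled change of 3.55. It was the quickest of the 6, with its 72 h level already approached at 6 h. The others lay in an intron of GRXCR2 near SH3RF2 (scaled change 3.55), between genes near CTH (3.49), and downstream of TGFBI (3.48). In solvent the AUC of all 6 lay between 201 and 246, so the size of these ratios was set by the distance from the threshold, and a region slightly weaker in solvent would have counted as gained.

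The 6 shared distal regions of largest fall had AUCs of 1725 to 2319 in solvent. The leading one, at chr20:20772460-20773068 and 59816 bp from RALGAPA2, went from 2319 in solvent to 1862 after 6 h, 620 after 24 h and 239 after 72 h, a scaled change of -3.52. A region 6886 bp from ANKRD62 went from 2079 to 1918, 1288 and 257 (scaled change -3.26), and a region 4958 bp from RBM20 from 2086 to 1872, 931 and 270 (-3.20). A region 28628 bp from IRX2, a homeobox gene, went from 1974 to 1686, 534 and 322 (-2.86). The region 65303 bp from AFDN, the gene of the junction protein afadin, was at 2196, 2348, 1424 and 458 (-2.50). Its higher AUC at 6 h was a scaled change of -0.35. The summit of the last one lay in an untranslated exon of GGCX, 4310 bp from its nearest protein-coding TSS, with 1725 in solvent, 948 at 6 h, no peak at 24 h and 387 at 72 h (-2.40). In 5 of the 6 most of the loss came after 6 h.

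Among the gained regions reported here, which leave out 2 of the 5 largest, the top one lay downstream of TGFBI, at chr5:136073108-136078629. It was 5522 bp wide, with an AUC of 2297 after 6 h, 6122 after 24 h and 9564 after 72 h. It was followed by an intergenic region on chromosome 2 with 4855 at 72 h, 688997 bp from the nearest protein-coding TSS, that of HS6ST1. A region in an intron of SHISAL2A reached 4748, a region near ANGPTL4, a secreted regulator of lipoprotein lipase, 4675, and an intergenic region far from BTBD3 4280. None of these 5 had a solvent peak, and all 5 had a peak by 6 h.

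Lost regions were weaker. The largest lay beyond the 3′ end of FOS, 2408 bp from its nearest annotated TSS, at chr14:75282601-75284452, with an AUC of 2158 in solvent, 2951 at 6 h and no peak at 24 h or 72 h. The next were an intergenic region far from KIF4B (1717 in solvent), one 25922 bp from TFRC, the transferrin receptor gene (1631), one in an intron of ASPG (1570) and one in an intron of MTA1, a chromatin remodelling subunit gene (1434). In these 4 the peak persisted at 24 h with an AUC of 366 to 723.

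For each protein-coding gene the AUCs of regions within 3 kb of any of its TSSs were summed as the promoter value, and those of distal regions nearest to it as the distal value. A promoter value can thus take in regions inside a gene, near internal TSSs. Of 13644 ranked promoters 637 opened (4.67%) and 129 closed (0.945%), with a median of -0.04. Centred among regions of like AUC the counts were 406 and 288, centred on all shared regions they were 414 and 329, and set per base of peak 152 opened and 202 closed. Of 5965 ranked distal values 3071 opened (51.5%) and 24 closed (0.402%), with a median of 0.52, so an opening distal value was the usual state of a gene in this comparison. Per base of peak the median distal value was 0.0019 and 119 genes opened against 89 that closed. Since a gene's value counts an absent region as 0, folds of genes with gained regions were also computed with absent regions placed at the threshold of 200. On that scale 465 promoters and 2013 distal values opened. The counts of each gene list stand against the shares of all genes, 4.67% opening and 0.945% closing at promoters and 51.5% and 0.402% by distal value. Per base of peak at most 1 distal value opened in each of the 18 lists, and promoters opened only in the matrix list (3 of 21), the desmosome and hemidesmosome list (1 of 18) and the keratin list (1 of 13).

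The promoter values that fell most were led by TGM1, which encodes the transglutaminase that cross-links the cornified envelope. Its 2 promoter regions summed to 3905 in solvent, 3866 after 6 h, 2403 after 24 h and 1279 after 72 h, a scaled change of -1.85. NTSR1, the neurotensin receptor gene, followed at 3690, 3591, 2235 and 1464 (-1.58, with 3 of its 5 regions lost), then PARVG (-1.53), PPARGC1A, the gene of the metabolic coactivator PGC-1α (-1.29), GREP1 (-1.25), and SPNS2 (-1.18), TLR9 (-1.17) and SGPP2 (-1.17). SPNS2 exports sphingosine 1-phosphate and SGPP2 dephosphorylates it. With both lists cut to the same length 7 of the 8 still had a value, and all 7 were past -0.5. That cut removed peaks of the 72 h list only, so it could not have undone a fall.

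The promoter values that rose most started near the threshold. DGKI, a diacylglycerol kinase gene, had 202 in solvent, 1891 after 6 h, 3479 after 24 h and 4119 after 72 h, a scaled change of 4.10, or 1.80 with its 4 gained regions at the threshold in solvent. ACTBL2, an actin-like gene, had a single promoter region, which went from 236 to 2000, 2607 and 2665, a scaled change of 3.25 that involves no absent region. MARCOL likewise had 1 region and changed by 2.69. The others were SNAP25, TMIGD3, ABCA13, GABBR2 and RASGRF2, a Ras exchange factor gene, at 2.64 to 3.12, and at 0.79 to 1.85 with absent regions at the threshold. All 8 opened also with both lists cut to the same length. That cut left their solvent values as they were, so it does not address how near these lay to the threshold.

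Falls of distal values were small and few. PIM3, a serine/threonine kinase gene, had 12748 in solvent, 14559 after 6 h, 10893 after 24 h and 8479 after 72 h, a scaled change of -0.83. It was followed by RPL19 and ACSS1 (both -0.78), LAPTM4B (-0.73), TACC3 (-0.72), PGM2 (-0.70), ROPN1L (-0.67) and PCARE (-0.65). The largest distal rises, of NTMT2 (4.21), RFLNA (4.13), KIAA1549L (4.02), SCN11A (3.93), ZRANB1 (3.92), CEP152 (3.74), TARS3 (3.51) and ARHGEF26 (3.40), each had a solvent sum of 221 to 517, mostly 1 weak peak joined later by gained regions. With absent regions at the threshold they were 0.81 to 2.18. RFLNA, whose product binds filamin, had 279 in solvent, 830 after 6 h, 2564 after 24 h and 5798 after 72 h.

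Genes whose promoter opened had a median distal value of 0.70 over 326 genes, those whose promoter closed 0.31 over 47, and the remaining 4228 genes 0.47. A distal value of 0.5 or more was seen in 67.5%, 38.3% and 47.3% of them.

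Matrix and matricellular genes, which encode the collagens, glycoproteins and cross-linking enzymes laid down by mesenchymal cells, had the highest promoter median of the 18 lists. Of 21 ranked promoters 9 opened and 0 closed, with a median of 0.40 against -0.04 over all promoters. TGFBI, a secreted matrix protein gene named for its induction by TGFβ, had 14518 in solvent, 32466 after 6 h, 60477 after 24 h and 66922 after 72 h over 16 promoter regions, a scaled change of 1.96. These regions lie along the gene. The peak at its start alone rose much less, from 4481 in solvent to 6225, 6871 and 6993, unscaled. FN1, the fibronectin gene and a classical mesenchymal marker, had 1563, 4029, 5083 and 6310, a scaled change of 1.77. Its leading region, which spans the TSS at chr2:215435589-215437001, went from 882 in solvent to 2782, 3957 and 4268, a scaled change of 2.03. COL1A2 changed by 1.56 (522 to 1827) without a gained region, FBN1 by 1.35 and LOXL2 by 0.53, whereas COL1A1 stood at 0.33 and FBN2, the lowest, at -0.06. The COL1A2 region behind most of its rise went from 219 to 1380. It lay in an exon at chr7:94423837-94424271, well inside the gene, which starts at 94394895. In both FN1 and COL1A2 each successive list was higher than the one before.

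By distal value 16 of 20 ranked matrix genes opened (80%, against 51.5% of all genes) and 0 closed, with a median of 0.86 against 0.52. Per base of peak 0 of the 20 opened and 1 closed, with a median of 0.032. POSTN, the periostin gene, had no promoter peak in any list, yet its 20 distal regions, of which 16 were gained, summed to 1385 in solvent, 6751 after 6 h, 9527 after 24 h and 12430 after 72 h. Its scaled change was 2.92, or 1.20 with absent regions at the threshold. LOX, a collagen cross-linking enzyme gene, changed by 1.58, CCN2 by 1.34 and FN1 by 1.28, while SPARC, the lowest, stood at -0.06. The distal values of LOX and FN1 were -0.63 and -0.23 per base of peak.

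The peaks over TGFBI spread along the gene body, and this was followed as the share of the gene covered by peaks, a measure chosen after these peaks had been seen. Peaks covered 15.5% of the 34831 bp of TGFBI in solvent, 34.2% after 6 h, 62.9% after 24 h and 75.2% after 72 h. Over 14854 protein-coding genes of at least 10 kb the median was 2.22% in solvent and 2.76% at 72 h, and the cover of 17 genes grew by at least 10 percentage points while that of 0 shrank as much. TGFBI was first, followed by LAMB3, which encodes a chain of the anchoring laminin, with 39.1% in solvent, 85.3% at 6 h and 94.4% at 72 h. GALK1, whose annotated span overlaps that of the hemidesmosomal integrin gene ITGB4, went from 23.7% to 76.3%, KRT7, a simple epithelial keratin gene, from 26.0% to 51.6%, and THBS1, the thrombospondin gene, from 6.95% to 23.0%. The AUC per base of the TGFBI promoter regions did not rise with their spread and had a scaled change of -0.44. At the other end EPHB6 went from 17.0% to 7.14%, ALDH3A1 from 13.6% to 6.93% and ANXA1, the annexin gene, from 13.1% to 6.58%. The 3405 bp of FOS were covered to 86.3% in solvent, 94.2% after 6 h, 81.4% after 24 h and 65.1% after 72 h.

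**Figure D2:**
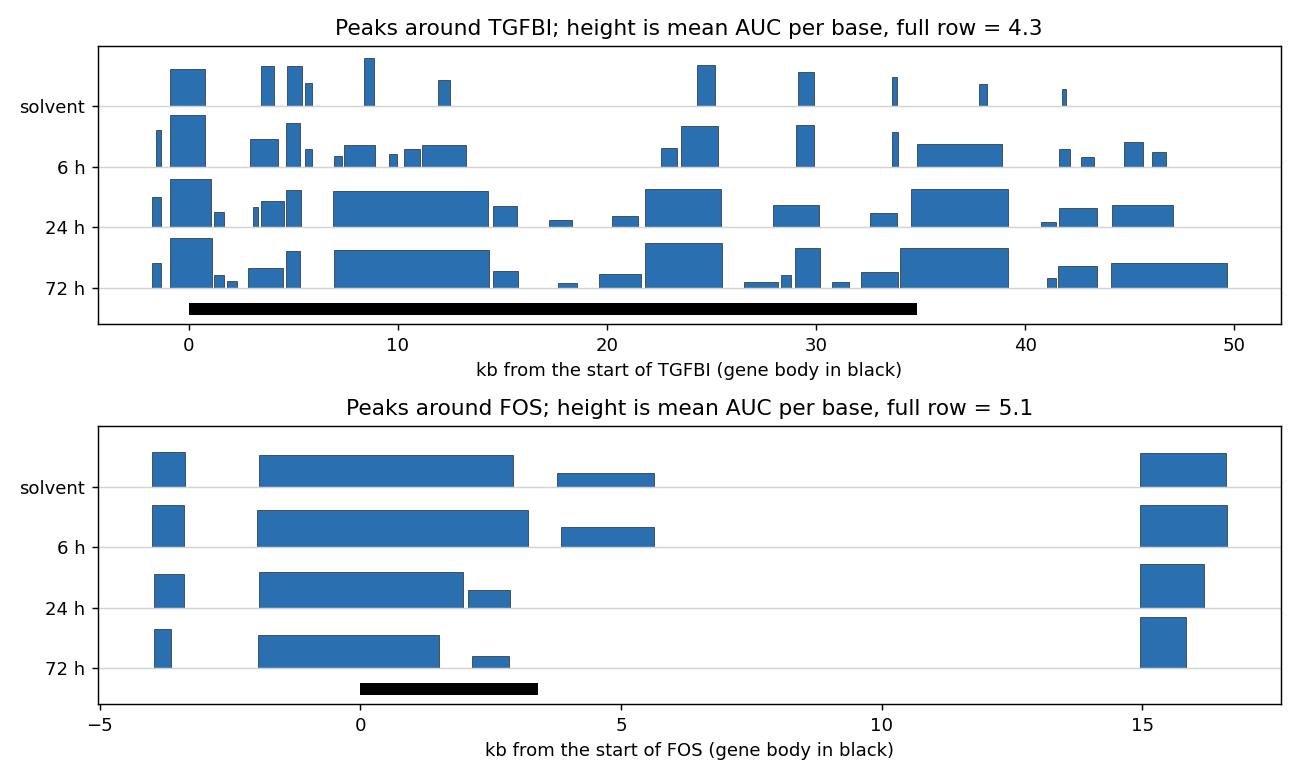
Peaks of the 4 lists around TGFBI and FOS, with distance from the gene's start in kb on the x axis, 1 row per list, each block spanning a peak and its height giving the mean AUC per base on the scale in the panel title. Peaks over and beyond TGFBI widened and joined until 75.2% of the gene was covered at 72 h, and the peak downstream of FOS in solvent and at 6 h was absent at 24 h and 72 h.

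Adhesion, migration and cytoskeletal genes opened in part. Of 21 integrin and migration promoters 5 opened and 0 closed, with a median of 0.25. WNT5B, a non-canonical WNT ligand gene, was highest, at 303 in solvent, 982 after 6 h, 1827 after 24 h and 1918 after 72 h, a scaled change of 2.42, or 1.69 with its gained region at the threshold. That region, printed above, went from no peak in solvent to 610, 1236 and 1355. WNT5A changed by 0.92 and CDH11, a mesenchymal cadherin gene, by 0.65, and PDGFA was lowest at -0.13. The value of CDH11 was 0.32 with its gained region at the threshold and -0.59 per base of peak, where 0 of the 21 promoters opened and 2 closed. CDH2, the N-cadherin gene whose product replaces E-cadherin in EMT, stood at 0.49 by promoter, just short of the limit, and at 1.18 by distal value, where its 44 regions summed to 14355 in solvent, 30174 after 6 h, 37356 after 24 h and 38424 after 72 h. The distal values of this list had a median of 0.55, 12 of 20 opening, near the 51.5% of all genes, with CDH11 highest (1.48) and ITGA3 lowest (0.18).

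Of 20 actin and contractile promoters 3 opened and 0 closed, with a median of 0.20. TAGLN, the transgelin gene of contractile cells, had a single region that went from 1135 in solvent to 2278, 3145 and 3104, a scaled change of 1.21. PALLD (0.61) and MYLK (0.56) also opened, and ACTN4 was lowest at -0.05. PALLD was the highest of 10 distal values (1.01) and PDLIM5 the lowest (0.19), 5 of the 10 opening (50%, against 51.5% of all genes), and per base of peak that of PALLD was -0.10 and 0 of the 20 promoters opened. Among 17 protease and protease inhibitor promoters 4 opened and 0 closed. ADAM12, a membrane metalloprotease gene, changed by 1.59 (819 to 2921) and PLAU, the urokinase gene, by 0.84 (8238 to 17488), and ADAMTS1 was lowest at -0.23. Per base of peak ADAM12 stood at -0.36 and PLAU at -0.087, and 0 of the 17 opened and 1 closed. The highest distal value was that of ADAMTS6, 737 in solvent, 4062 after 6 h, 6432 after 24 h and 7015 after 72 h, a scaled change of 3.01, or 1.61 with absent regions at the threshold, and the lowest that of MMP28 (0.19), with 9 of 15 opening (60%, against 51.5% of all genes).

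Cell-cell junction genes stood at the other end of the 18 lists by promoter median. Of 19 ranked promoters 0 opened and 1 closed, and the median was -0.23. In this list 15 lay below 0, as did 8156 of all 13644 ranked promoters. CLDN7, a tight junction claudin gene, had 5049 in solvent, 6049 after 6 h, 4731 after 24 h and 3579 after 72 h, a scaled change of -0.74. Within it the region at chr17:7262365-7263616 went from 1879 to 547 between solvent and 72 h, a scaled change of -2.02. CRB3, a polarity gene, stood at -0.46 and EPCAM, an epithelial adhesion molecule gene, at -0.30. CDH1, the E-cadherin gene, was the highest of the list, with 5025 in solvent, 8235 after 6 h, 8336 after 24 h and 7254 after 72 h, a scaled change of 0.29. By distal value 3 of 13 opened, 23.1% against 51.5% of all genes, TJP1 being highest (0.79) and CDH1 lowest (-0.04), with a median of 0.27.

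Epithelial regulator genes behaved much as the junction genes did. Of 20 promoters 0 opened and 2 closed, and the median was -0.16. Here 17 lay below 0, against 8156 of all 13644 ranked promoters. OVOL2, a zinc-finger repressor that maintains epithelial identity, had 2222 in solvent, 2866 after 6 h, 1698 after 24 h and 1207 after 72 h, a scaled change of -1.12, with 2 of its 5 regions lost, but 0.050 per base of peak. EHF, an epithelial ETS factor gene, had 2337, 2571, 1567 and 1639, a scaled change of -0.76, and its intronic region at chr11:34640008-34640628 went from 1639 in solvent to 424 at 72 h, a scaled change of -2.20. ESRP1, an epithelial splicing regulator, stood at -0.42 and RBM47, an RNA-binding protein of epithelial cells, at -0.15. Only 1 of 15 distal values opened, that of GATA3 (0.60), 6.67% against 51.5% of all genes, and CEBPA was lowest (-0.30), with a median of 0.14.

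The EMT transcription factor genes, which encode repressors of epithelial genes such as SNAIL, SLUG and ZEB proteins, had no promoter past the limits used. Of 12 ranked promoters 0 opened and 0 closed, with values from -0.22 (SOX4) to 0.35 (TCF4). SNAI1 stood at -0.18, SNAI2 at 0.30 and ZEB1 at -0.02. Their distal values all opened, 11 of 11, with a median of 0.91 against 0.52 over all genes. PRRX1 was highest (1.29) and ZEB2 lowest (0.52). The 7 distal regions of ZEB1 summed to 2105 in solvent, 4238 after 6 h, 5945 after 24 h and 5933 after 72 h, a scaled change of 1.25. SNAI2 had 4878, 10273, 12461 and 10845 (0.91), TWIST1 1729, 3502, 4299 and 4222 (1.04), and SNAI1 8579, 15891, 15919 and 14762 (0.54). With absent regions at the threshold 7 of the 11 opened and the median was 0.70, against 0.36 over all genes, and per base of peak 0 of the 11 opened. Centred on all shared regions, or among regions of like AUC or like GC content, 7 of the 11 opened. With distal regions given to the nearest gene of any biotype, only 3 of these genes were ranked and 2 opened.

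The distal region of ZEB1 that gained most AUC by 72 h, in an intron of ZEB1-AS1, 75220 bp from the ZEB1 TSS, went from 442 in solvent to 1381, 2380 and 2277, a scaled change of 2.12. The distal region of CDH2 that gained most lay 976076 bp from its TSS, so its assignment rests on distance alone. It went from 1942 to 6102, 6437 and 5809, a scaled change of 1.34.

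**Figure D3:**
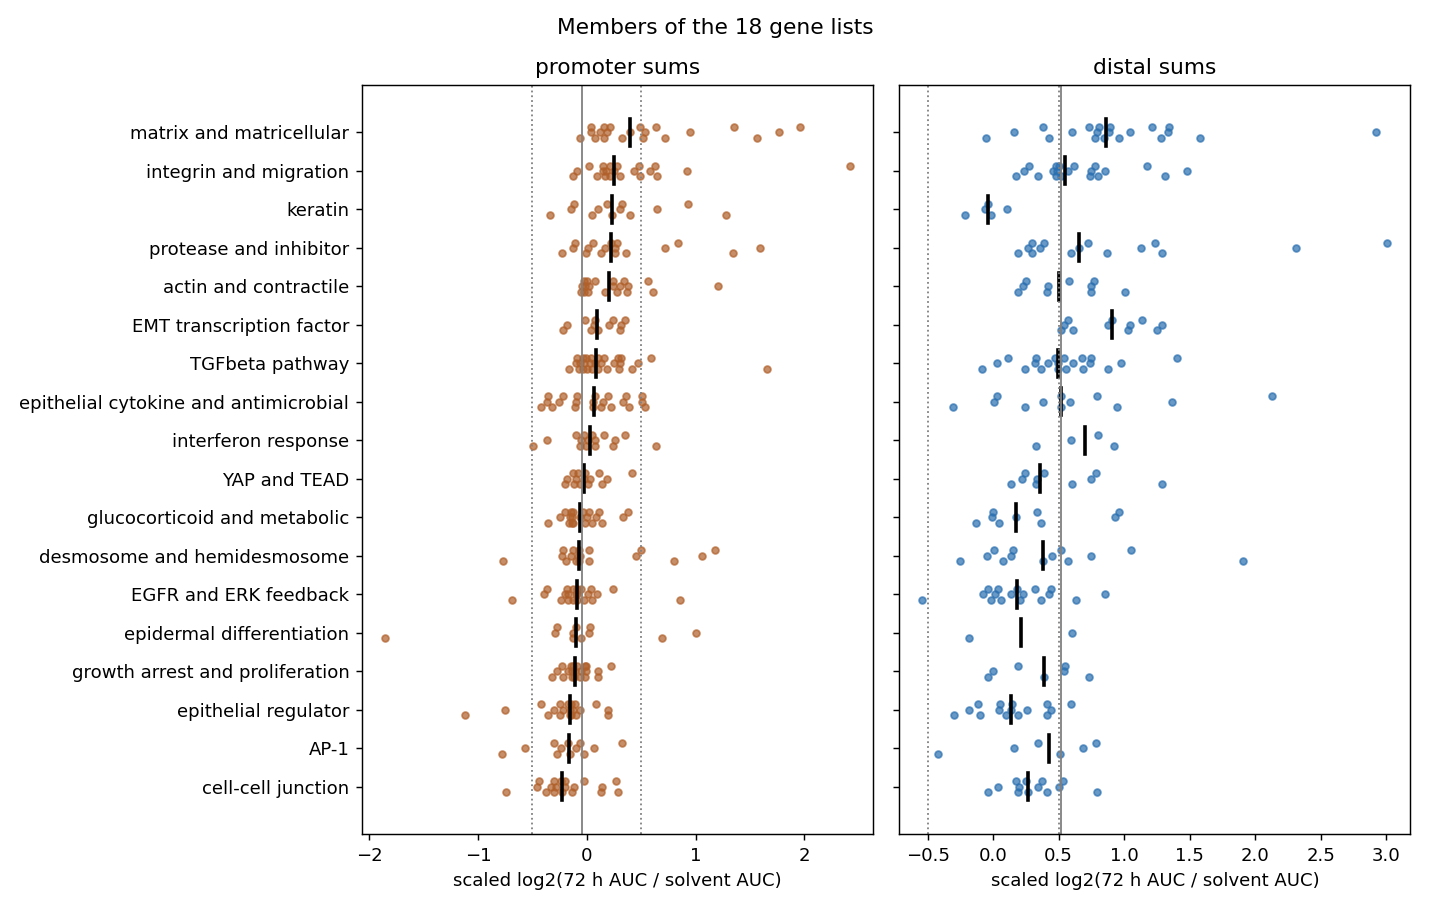
Scaled log2 change (x axis) of every ranked member of the 18 gene lists (rows, ordered by promoter median), for promoter values at left and distal values at right. Points are genes, black bars the list medians, grey lines the medians of all ranked genes (-0.04 and 0.52) and dotted lines the limits of 0.5 and -0.5.

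Anchoring and keratin genes were mixed. Of 18 desmosome and hemidesmosome promoters 3 opened and 1 closed. PKP1, a plakophilin gene, was highest (1.18), and LAMB3 had 46988 in solvent, 95700 after 6 h, 106715 after 24 h and 116224 after 72 h, a scaled change of 1.06. COL17A1, the gene of a hemidesmosomal collagen, opened as well (0.80), while PPL, the periplakin gene, closed (9364 to 6485, -0.77, but 0.0029 per base of peak). By distal value LAMB3 was highest (1.91) and PPL lowest (-0.25). Among 13 keratin promoters KRT14, a basal cell keratin, was highest, at 2652 in solvent, 8119 after 6 h, 8750 after 24 h and 7600 after 72 h, a scaled change of 1.28. KRT7 (0.93) opened too, whereas KRT15 was lowest (-0.34) and 0 of 5 distal values opened, with KRT19 highest (0.11) and KRT17 lowest (-0.22). Epidermal differentiation genes split, with TGM1 at -1.85, TGM2, a matrix cross-linking transglutaminase gene, at 1.00 (-0.37 per base of peak), and IVL, the involucrin gene, at 0.69. Only 2 of this list had a ranked distal value, TGM2 (0.61) and KLK5 (-0.18).

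Of 28 TGFβ pathway promoters 2 opened (7.14%, against 4.67% of all promoters) and 0 closed, and per base of peak 0 opened. The 2 were LDLRAD4 and PMEPA1, both genes of pathway inhibitors. LDLRAD4 had 1235 in solvent, 3369 after 6 h, 4872 after 24 h and 4599 after 72 h, a scaled change of 1.65, or 0.93 with its 4 gained regions at the threshold, and the gained region printed above, which carries the SMAD palindrome, had 511, 989 and 951 at the 3 times. PMEPA1 had 11401, 19968, 21540 and 20313, a scaled change of 0.59, but -0.068 per base of peak. The inhibitor gene SMAD7 stood at 0.42 and the receptor gene TGFBR3, the lowest, at -0.16. By distal value 10 of 21 opened, 47.6% against 51.5% of all genes, with NOG highest (1.40) and ID1 lowest (-0.08).

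AP-1 genes, whose products form FOS and JUN dimers, mostly had promoter values below 0, as did most ranked genes. Of 12 promoters 0 opened and 2 closed, and the median was -0.16. Of the 12, 10 lay below 0, against 8156 of all 13644 ranked promoters. FOS had 15177 in solvent, 19346 after 6 h, 12890 after 24 h and 10444 after 72 h, a scaled change of -0.78, and FOSB had 8985, 11201, 8758 and 7153, a scaled change of -0.57. The leading FOS region went from 13019 in solvent to 16395 at 6 h unscaled, which was a scaled change of -0.12. FOSB stood at 0.0069 per base of peak, and 0 of the 12 promoters closed on that scale. JUN stood at -0.27 and JUNB at -0.10, and MAFK, a small MAF gene, was highest at 0.32. Distal values ran from -0.42 (FOS) to 0.78 (ATF3, -0.23 per base of peak), 3 of 6 opening (50%). Of 22 EGFR and ERK feedback promoters 1 opened, that of IER3 (7529 to 16119, 0.85, but -0.27 per base of peak), and 1 closed, that of SPRY1, an ERK pathway inhibitor gene, with 7814, 9234, 7119 and 5748 over the 4 lists (-0.69). The distal value of SPRY1 moved the opposite way (0.85), and that of EGR1, an immediate early gene, was lowest (-0.54, but 0.30 per base of peak). Of 17 in this list 2 opened and 1 closed.

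The remaining lists showed little at promoters, and their distal counts are to be read against the 51.5% of all genes that opened. For growth arrest and proliferation genes 0 of 21 promoters opened or closed, from CDKN1C (-0.32) to CDKN1A (0.22), and 3 of 7 distal values opened, from MCM5 (-0.04) to MKI67 (0.73). For glucocorticoid and metabolic genes 0 of 21 promoters did, from ALDH1A3 (-0.36) to SCD (0.38), and 2 of 9 distal values opened, from TSC22D3 (-0.13) to KLF9 (0.96). For YAP and TEAD genes 0 of 15 promoters did, from LATS2 (-0.20) to F3 (0.42), and 4 of 10 distal values opened, from YAP1 (0.14) to F3 (1.29). Of 22 cytokine and antimicrobial promoters 3 opened, with IL1B highest (0.54) and S100A9 lowest (-0.42), and 7 of 12 distal values, with IL33 highest (2.13) and CCL20 lowest (-0.31). Of 16 interferon response promoters 1 opened, that of IFIT3 (0.63), with OAS1 lowest (-0.49), and 3 of 4 distal values, with IFIH1 highest (0.93).

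Motifs were searched within 100 bp of the summit of the strongest peak of each region. The AP-1 element TGACTCA was present in 48.4% (95% Wilson interval 47.2 to 49.6) of 6596 opening distal regions, in 37.4% of 40959 other shared distal regions and in 9.36% (7.35 to 11.8) of 652 closing distal regions, against 38.6% of all 77467 distal regions. These intervals cover counting error only. Gained distal regions had it in 40.7% and lost ones in 8.36%. At proximal regions the shares were 43.8% in opening, 18.8% in other and 6.82% in closing regions. With change centred among regions of like GC content the shares of opening and closing distal regions were 47.9% and 12.6%.

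Closing sites held more E-box and C/EBP elements. The E-box CACCTG, which is bound by SNAIL and ZEB repressors among others, was present in 29.6% (26.2 to 33.2) of closing, 19.8% of other and 12.6% (11.8 to 13.4) of opening distal regions, against 17.5% of all. In closing distal regions with a mean AUC of at least 1000 it reached 40.2% (31.7 to 49.2) of 117. The C/EBP element TTGCNNAA stood in 27.9% of closing and 11.3% of opening distal regions, against 14.4% of all. The AP-2 element GCCNNNGGC stood in 15.2% and 5.81%, against 7.76% of all. At proximal regions the AP-2 share was no higher in closing (15.6%) than in other regions (18.7%). The proximal C/EBP share was 24.4% in closing, 8.33% in other and 9.29% in opening regions. AP-2 and C/EBP proteins are epithelial regulators.

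Elements of SMAD, RUNX and TEAD factors were more frequent among opening sites. CAGACA stood in 25.8% of opening, 17.9% of other and 14.3% of closing distal regions, and in 32.6% of the 1973 opening ones with a mean AUC of at least 1000. The RUNX element TGTGGTT stood in 10.4%, 6.48% and 4.29%, and the TEAD element GGAATG in 21.1%, 16.3% and 15.3%. The SMAD palindrome GTCTAGAC was rare everywhere, in 0.561% of opening, 0.181% of other and 0 of 652 closing distal regions, which allows a share of up to 0.460%. The GRHL element AACNNGTT, of the epithelial grainyhead-like factors, stood in 5.06% (3.63 to 7.02) of closing, 3.37% of other and 3.03% of opening distal regions. Lost distal regions had it in 3.35%, against 3.31% of all. GATA, POU and FOX elements were at like shares in opening and other regions. The GC-rich KLF/SP element GGGCGG stood in 3.17% of opening and 9.36% of closing distal regions, and the CTCF element CNAGNGGGC in 1.68% of opening, 3.22% of closing and 5.59% of other ones.

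**Figure D4:**
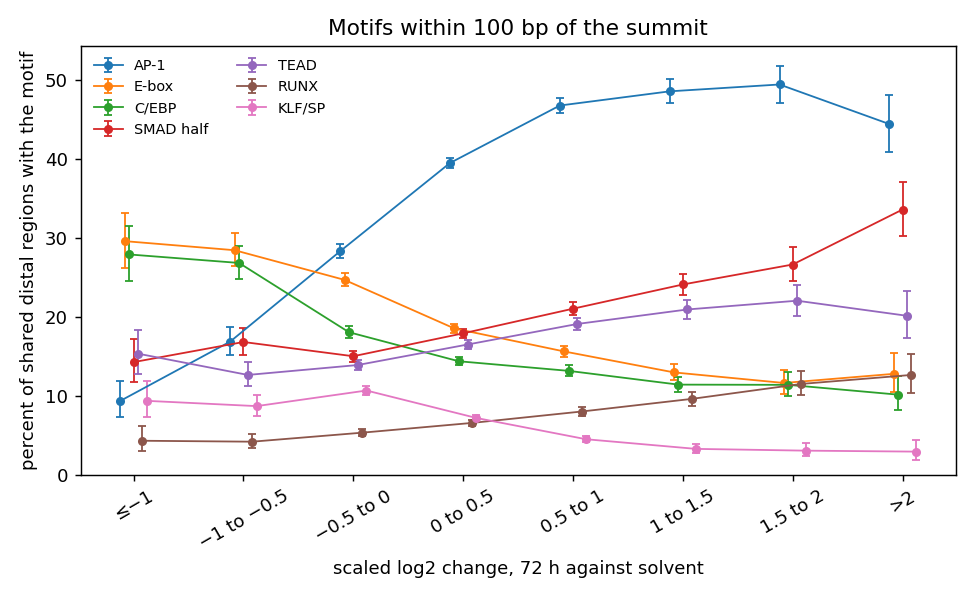
Percent of shared distal regions with a motif within 100 bp of the summit (y axis) by bin of scaled log2 change (x axis), bars being 95% Wilson intervals. The AP-1 share climbed from 9.36% in the lowest bin to 48.6% in the bin from 1 to 1.5, while the E-box share fell from 29.6% to 11.6% in the bin from 1.5 to 2 and was 12.8% in the last, and the C/EBP share fell from 27.9% to 10.1%.

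Across the bins of change the AP-1 share was 9.36% below -1, 16.9% from -1 to -0.5, 28.3% from -0.5 to 0, 39.5% from 0 to 0.5, 46.8% from 0.5 to 1, 48.6% from 1 to 1.5, 49.5% from 1.5 to 2 and 44.4% above 2. It thus levelled off among opening regions. The share of CAGACA, in contrast, was highest in the last bin, at 33.6%. The bins differ in mean GC content, and its part in these shares was not tested.

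The cell type named by the labels could be checked on promoter values. All 9 basal mammary epithelial markers had a promoter peak in both lists, with medians of 8798 in solvent and 11204 at 72 h. Of 5 luminal markers 3 had one in solvent and 2 at 72 h, the steroid receptor gene ESR1 losing its peak of 298. Of 6 fibroblast markers 4 had one in solvent and 6 at 72 h, with medians of 2123 and 3451. COL3A1 and LUM had no peak in solvent and AUCs of only 284 and 268 at 72 h, near the listing threshold. Both values lay under 426, the AUC below which the cut to equal length removed 72 h peaks. Of 6 blood markers 4 had a promoter peak in both lists, and of 5 endothelial markers 2 had one in solvent and 3 at 72 h, CDH5 and TEK having none in either. A promoter peak does not show expression, and the markers cannot tell a change in the cells from a change in their mixture.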

How the data were processed

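The authors trimmed reads with Trimmomatic 0.38, aligned them to GRCh38 with Bowtie2 2.4.5, removed duplicates with Picard and mitochondrial and low-quality alignments with SAMtools 1.4.1, and called peaks on both libraries of a condition jointly with Genrich 0.5 in ATAC mode, leaving out blacklisted regions. Each deposited list gives, per peak, the AUC, a score used here as the signal, and a −log10 p value, which was not used. Lengths of the solvent and 72 h lists were 86209 and 116720 peaks, and library depth is not given in them, so no interval was set on a fold. Coordinates lay within hg38, and genes came from GENCODE 44. Merging, scaling and sums used Python 3.11.15, numpy 2.4.6, pandas 2.3.3 and scipy 1.17.1. They recovered known AUC changes in a list simulated from the solvent list. That list kept the peak widths and had no gained peaks and no AUC threshold, so it does not test results that rest on these.

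Shared distal regions were ranked from a mean AUC of 1000. Promoters were ranked from a mean AUC of 1000 and distal values from 2000 over at least 3 regions. Named were the 8 promoters and 8 distal values of largest rise and of largest fall, the 6 leading distal regions each way, the 5 largest gained and lost regions, the highest and lowest member of each of 18 gene lists, and chosen EMT genes. Other members and single regions of named genes were picked after their values were seen. Members and lists were chosen with earlier results of these data known. In all, 2 genes and their regions, among them 2 of the 5 largest gained regions, are not reported here and were left out of ranks and lists, and the values of a few other list members, counted in their lists, are not printed. The alternatives are given in the closing section.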

Additional observations from a re-analysis of the deposited data

How the results depend on the processing

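No paired analysis was possible because each condition has 1 list of pooled libraries. The AUC threshold and the unknown depth limit the comparison, since a gained or lost region has no fold. The counts of opening and closing regions depended on the centring.

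With both lists cut to the shorter length, 367 regions closed, 13287 were gained and 11763 lost, 245 promoters and 61 distal values closed, and the E-box share of closing distal regions was 36.3%. With only peaks of an AUC of 400 or more, 3590 regions opened, 380 closed and 1906 were lost, and that E-box share was 36.4%. Per base of peak, 2519 regions opened and 529 closed, 152 promoters opened and 202 closed, 119 distal values opened and 89 closed, the AP-1 shares of opening and closing distal regions were 43.8% and 13.8%, and the E-box share of closing ones was 26.0%. By the strongest peak 241 promoters closed. Centred on all shared regions, 414 promoters opened, 329 closed and 64 distal values closed. Centred among regions of like AUC, 4722 regions opened and 2114 closed, 406 promoters opened and 288 closed, 75 distal values closed, and the E-box share of opening distal regions was 11.6%. An overlap of 50% of both peaks gave 10905 lost peaks, and the nearest gene of any biotype 1489 opening distal values. A search of the whole strongest peak gave AP-1 shares of 56.7% in opening and 15.2% in closing distal regions, E-box shares of 29.9% and 48.8%, and C/EBP shares of 25.6% and 43.7%. In each of these settings in which motif shares were computed, AP-1 remained more frequent in opening and the E-box and C/EBP elements in closing distal regions.

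2 alternatives were chosen after seeing the data. With absent regions at the threshold 2013 distal values opened. Centred among regions of like GC content, 5047 regions opened and 1751 closed, 1813 distal values opened and 75 closed, and the AP-1 share of closing and the C/EBP share of opening distal regions were 12.6% and 10.4%. A proximal limit of 1 kb kept the counts within 1.5 times.

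Of 2010 values of named genes under the alternatives 35 changed sign after a call, and of 342 list medians 1 did, all of them per base of peak, and the cause was not tested. These promoter values were -0.36 for ADAM12, -0.59 for CDH11, 0.0069 for FOSB, -0.080 for GABBR2, -0.27 for IER3, 0.050 for OVOL2, -0.087 for PLAU, -0.068 for PMEPA1, 0.0029 for PPL, -0.44 for TGFBI and -0.37 for TGM2. The distal values were -0.25 for ABCA13, 0.081 for ACSS1, -0.0033 for ACTBL2, -0.23 for ATF3, -0.11 for COL1A2, -0.035 for DGKI, 0.30 for EGR1, -0.27 for FBN2, -0.23 for FN1, -0.042 for HMGA2, -0.46 for IL33, -0.063 for JUN, -0.36 for LAMA3, -0.080 for LATS2, -0.63 for LOX, -0.094 for MKI67, -0.10 for NOG, -0.10 for PALLD, -0.14 for PPARGC1A, 0.43 for ROPN1L, -0.11 for SOX4, -0.0032 for TGFBR2, -0.075 for TWIST2 and -0.14 for WNT5A, and the median of the cytokine and antimicrobial list was -0.079.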

Other observations

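Genes whose body was covered at least 10 percentage points more at 72 h than in solvent included others beside those named in the report. The cover of TNS4, a focal adhesion gene of epithelial cells, went from 46.8% in solvent to 66.1% at 6 h and 64.4% at 72 h. That of ANGPTL4 went from 16.3% to 34.9% at 6 h and 35.2% at 72 h. The cover of FLOT1 and PTOV1 was 18.6% and 19.3% at 24 h and 29.3% and 28.2% at 72 h. These values have no replicate, and the measure was chosen after the data had been seen.

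The number of peaks of at least 3 kb did not follow the number of peaks. It was 163 in solvent, 307 after 6 h, 242 after 24 h and 191 after 72 h, while the lists held 86209, 107656, 118433 and 116720 peaks. The widest peak was 7294 bp in solvent and 19900 bp at 72 h.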
